A study of Mus musculus with 2 samples.

Results

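The miR-26 family was compared between mouse helper T cells cultured under Th17 conditions and control Th0 cells, with 1 small RNA library per group. The family comprises miR-26a-5p, miR-26b-5p and miR-26b-3p, chosen by name, and all 3 were listed in both libraries, among 1012 mature miRNAs in Th17 and 986 in Th0. The remaining arms of the same hairpins, miR-26a-1-3p and miR-26a-2-3p, were also listed and are given beside them. Both cultures began with naive CD4+CD62L+ T cells from the spleen of female C57BL/6 mice, in medium with 10% serum. Th17 cells received 4 cytokines, namely 40 ng/ml of IL-6, 40 ng/ml of IL-23, 10 ng/ml of IL-1β and 2 ng/ml of TGF-β, together with 1 µg/ml of anti-CD28 and 5 µg/ml each of neutralising antibodies to IL-2, IL-12, IFN-γ and IL-4, for 6 to 7 days. Th0 cells received none of these cytokines, only 1 µg/ml of anti-CD28 and 5 µg/ml each of the antibodies to IFN-γ and IL-4. The sources used here give no separate culture length for Th0, no number of mice and no account of how the stated triplicates were combined, so culture time and Th17 conditions cannot be told apart. The TPM column for Th0 is headed with a 1 after the group's name, which the other columns lack, and whether the Th0 values stand for a single replicate is unknown.

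A miRNA is cut from a hairpin precursor whose 2 arms, 5p and 3p, each can give a mature strand. The strand that is kept, the guide, pairs with messenger RNAs mainly through its seed, bases 2 to 8, and lowers their output, while the other strand, the passenger, is mostly degraded. miR-26 guides come from the 5p arm. Their hairpins lie in introns of the Ctdsp genes, which encode small phosphatases that act on the C-terminal domain of RNA polymerase II. miR-26a is known to target interleukin-6, a cytokine that with TGF-β starts Th17 differentiation, and Ezh2, the histone methyltransferase of Polycomb complex PRC2.

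The mature sequences show which family members share a seed, and the seed is in capitals, 5′ to 3′. The sequences were taken from RefSeq (GRCm38.p6), in which all 5 arms were found.
miR-26a-5p: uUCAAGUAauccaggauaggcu
miR-26b-5p: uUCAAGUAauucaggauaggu
miR-26b-3p: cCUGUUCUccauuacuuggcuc
miR-26a-2-3p: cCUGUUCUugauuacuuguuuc
miR-26a-1-3p: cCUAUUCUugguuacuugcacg
Both guides carried the seed UCAAGUA, which no other of the 1679 mature miRNAs in that table had. Counted from 1 at the 5′ end, the guides differed at C11U and C21U, with miR-26a-5p first, over 21 aligned bases, and miR-26a-5p was 1 base longer. Reads shortened at the 3′ end so that they stop before base 21 therefore differ between the guides at position 11 alone. The sources used here do not say how the authors assigned such reads. The passenger arms of mir-26b and mir-26a-2 shared the seed CUGUUCU, whereas miR-26a-1-3p differed from miR-26a-2-3p within the seed, at A4G.

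The hairpins show why miR-26a-5p is 1 entry for 2 loci while the 3p arms tell the loci apart, and the mature arms are in capitals.
Mir26a-1: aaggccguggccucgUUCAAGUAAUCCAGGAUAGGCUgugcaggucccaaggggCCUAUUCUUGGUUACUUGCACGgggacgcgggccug
Mir26a-2: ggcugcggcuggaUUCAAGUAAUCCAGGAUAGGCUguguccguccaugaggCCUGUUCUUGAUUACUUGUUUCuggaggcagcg
Mir26b: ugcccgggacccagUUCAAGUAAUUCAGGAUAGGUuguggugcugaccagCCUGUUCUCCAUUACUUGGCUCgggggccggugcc
In GRCm38, the assembly also called mm10, Mir26a-1 lies at chr9:119031796-119031885, Mir26a-2 at chr10:126995530-126995613 and Mir26b at chr1:74394310-74394394, all on the plus strand. GENCODE M21 places Mir26a-1 in intron 5 of the main Ctdspl transcript, Mir26a-2 in intron 5 of the main Ctdsp2 transcript and Mir26b in intron 4 of the main Ctdsp1 transcript, each on the strand of its host. A shorter coding model of Ctdsp2 begins at the last base of the Mir26a-2 hairpin, so that hairpin also touches an annotated exon by 1 base.

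The libraries held 11975371 listed reads for Th17 and 8358010 for Th0, and levels are given as counts per 1000000 of these listed reads (CPM). Every interval is a 95% exact interval of counting error within a library or between the 2 libraries. Amplified reads carry no molecular identifiers here and may be copies of one molecule, so the spread between cultures and any amplification bias lie outside these intervals, which hold counting error only. With a single library for each culture the conditions could not be tested, and no p-value is given. The 7 miRNA markers of T cells and blood summed to 141878 CPM in Th17 and 104855 CPM in Th0, with the intervals of 5, such as miR-142a-5p, above a ratio of 1 and those of miR-142a-3p and miR-342-3p below. Over the 298 miRNAs with a mean of 10 CPM or more, 40.6% had an interval above 1 and 47.7% had one below. Other lists were low: the endothelial markers summed to 85.9 CPM in Th17 and 191 CPM in Th0, the epithelial markers to 208 CPM in Th17 and 387 CPM in Th0, and the fibroblast markers to 19.6 CPM in Th17 and 2.15 CPM in Th0. Myeloid miR-223-3p stood at 6.76 CPM in Th17 and 3.35 CPM in Th0, the erythroid markers summed to 2.17 CPM in Th17 and 0.718 CPM in Th0, and the 5 listed liver, muscle and neural markers to 6.01 CPM in Th17 and 14.1 CPM in Th0. That last sum was mostly miR-9-5p, at 4.76 CPM in Th17 and 13.9 CPM in Th0, and the others on its list were higher in Th17 on few reads. Among the epithelial markers miR-200c-3p was 1.37-fold higher in Th17. The part of such cells in the miR-26 ratios was not tested, and fewer cells of a type cannot be told apart from less RNA per cell.

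The guide arms were more abundant in the Th17 library. miR-26a-5p, the dominant guide of the family, had 495288 reads in Th17, or 41359 CPM, against 267292 reads in Th0, or 31980 CPM. It was the seventh most abundant of all listed miRNAs in Th17 and the ninth in Th0. The level was 1.29-fold higher in Th17 (interval 1.287 to 1.299), a log2 ratio of 0.37.

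miR-26b-5p, the guide from the Ctdsp1 locus, had 88961 reads in Th17, or 7429 CPM, against 49365 reads in Th0, or 5906 CPM. It was placed 21 among all listed miRNAs in Th17 and 25 in Th0. The level was 1.26-fold higher in Th17 (interval 1.244 to 1.272), a log2 ratio of 0.33. The factors of both guides were thus close to each other. miR-26a-5p made up 84.8% of the guide reads in Th17 (84.68 to 84.87%) and 84.4% in Th0 (84.28 to 84.54%). The ratio of miR-26a-5p to miR-26b-5p was 5.57 in Th17 and 5.41 in Th0, a factor of 1.03 between the libraries (1.016 to 1.041).

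The passenger of the Ctdsp1 hairpin went the other way. miR-26b-3p had 939 reads in Th17, or 78.4 CPM (interval 73.5 to 83.6), against 833 reads in Th0, or 99.7 CPM (93.0 to 106.7). Its rank hardly moved, at 158 in Th17 and 159 in Th0. The level in Th17 was 0.787 times that in Th0 (0.716 to 0.865), a log2 ratio of -0.35.

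The passengers of the miR-26a hairpins were rarer. miR-26a-2-3p, from the Ctdsp2 locus, had 240 reads in Th17 (20.0 CPM) and 124 reads in Th0 (14.8 CPM), and was 1.35-fold higher in Th17 (1.08 to 1.69). miR-26a-1-3p, from the Ctdspl locus, had 11 reads in Th17 and 1 read in Th0, which gives a ratio of 7.68 with an interval from 1.12 to 330 that leaves its size unknown. Among the passengers, miR-26b-3p was thus the one whose interval lay below 1.

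**Figure D1:**
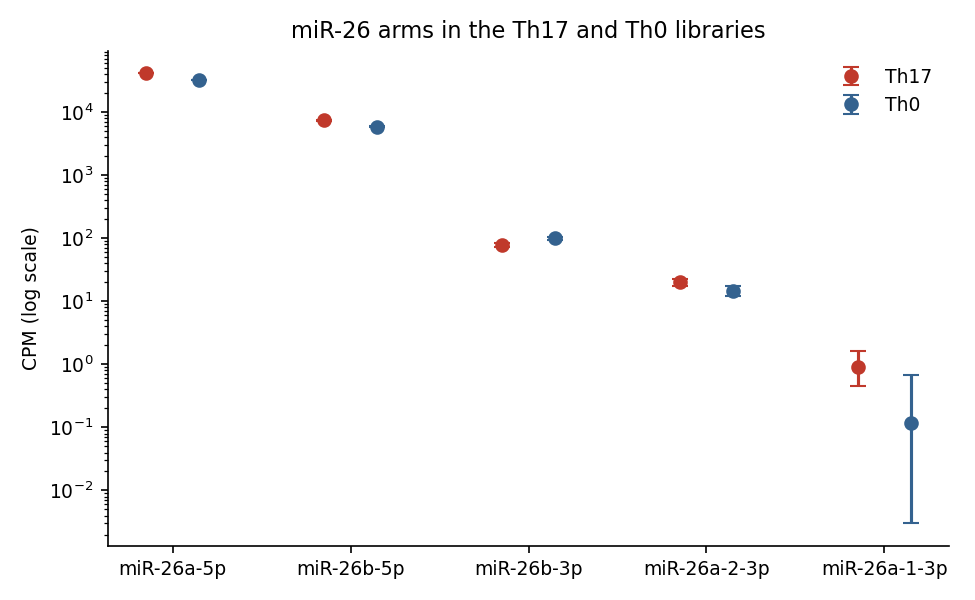
Level of the 5 miR-26 arms in CPM (log scale) in the Th17 library (red, left of each pair) and the Th0 library (blue, right), with 95% exact intervals of counting error. The guides miR-26a-5p and miR-26b-5p stand at 41359 and 7429 CPM in Th17 and at 31980 and 5906 CPM in Th0, miR-26b-3p is the arm that is lower in Th17, and the intervals of miR-26a-1-3p rest on 11 reads in Th17 and 1 read in Th0.

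None of the 3 members reached a 2-fold difference. The background was taken over the 298 miRNAs whose mean CPM in both libraries was 10 or more, of which 6.71% were at least 2-fold higher in Th17 with an interval above 1, and 13.1% were 2-fold lower or more with an interval below 1. Without regard to size, 40.6% of the 298 had an interval above 1, as miR-26a-5p and miR-26b-5p did, and 47.7% had one below 1, as miR-26b-3p did. These shares rest on column sums and move with the scaling, as given in the section on processing. With the counts available here, an interval that excludes 1 was thus common and not particular to the family. The median log2 ratio of the 298 was -0.08, with quartiles at -0.61 and 0.38. Of these miRNAs, 76 had a higher ratio than miR-26a-5p and 86 a higher one than miR-26b-5p, while 109 had a lower ratio than miR-26b-3p. For the 72 miRNAs that average 1000 CPM or more, 47.2% had intervals above 1, and the quartiles of the log2 ratio were -0.48 and 0.31, so both guides lay above the upper quartile of abundant miRNAs.

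**Figure D2:**
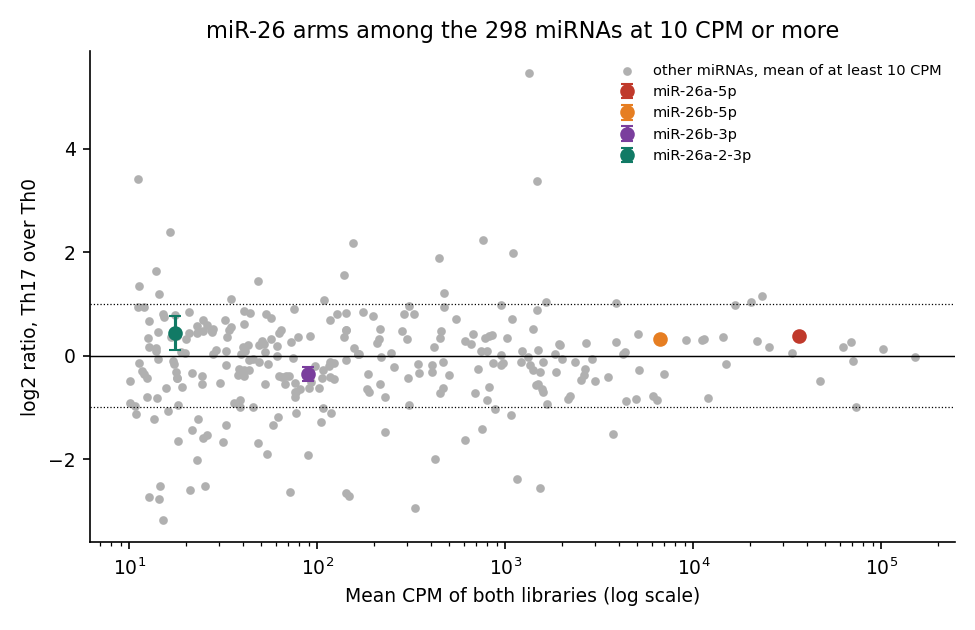
Log2 ratio of Th17 over Th0 against mean CPM of both libraries (log scale) for the 298 miRNAs that average 10 CPM or more, with miR-26 arms coloured and their 95% intervals of counting error; dotted lines mark 2-fold. miR-26a-5p (0.37) and miR-26b-5p (0.33) lie above 0, miR-26b-3p (-0.35) lies below, and all coloured points lie within the dotted lines.

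Of the 4 miRNAs next to the guides in abundance, 3 were lower in Th17 and let-7f-5p was 1.04-fold higher. Over all 298 miRNAs, 47.7% had an interval below 1 and 40.6% had one above. Just above miR-26a-5p by mean CPM was miR-16-5p, of the growth-restraining miR-15/16 family, with 39500 CPM in Th17 and 55353 CPM in Th0. Just below was let-7f-5p, with 34259 CPM in Th17 and 32931 CPM in Th0. miR-26a-5p was thus more abundant than both in Th17 and less abundant than both in Th0.

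miR-26b-5p was flanked by miR-30e-5p, with 6142 CPM in Th17 and 7843 CPM in Th0, and by miR-186-5p, with 4591 CPM in Th17 and 8259 CPM in Th0. Both of these were lower in Th17. Beside miR-26b-3p stood miR-200b-3p, an epithelial miRNA, with 37.3 CPM in Th17 and 141 CPM in Th0, and miR-16-2-3p, with 63.4 CPM in Th17 and 98.5 CPM in Th0. Both were lower in Th17 than in Th0, by more than miR-26b-3p was. Levels of different miRNAs are on the CPM scale, which makes no allowance for how well each strand is ligated or amplified.

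With 2 libraries, likeness between miRNAs can be measured only by how close their log2 ratios are. The family's own members were left out of this ranking, although miR-26b-5p at 0.33 was among the nearest to miR-26a-5p. Above an average of 1000 CPM, the other miRNAs nearest to miR-26a-5p were miR-30d-5p at 0.36, miR-361-5p at 0.34 and let-7a-5p at 0.32. Nearest to miR-26b-5p among all 298 were miR-30d-3p at 0.33, miR-340-3p at 0.32 and miR-3074-5p at 0.34. Nearest to miR-26b-3p were miR-504-5p at -0.35, with an interval that spans 0, miR-30e-5p at -0.35 and miR-374b-5p at -0.35.

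Since targets are recognised through the seed, reads were also summed by seed, for the 935 of 1125 listed miRNAs with a RefSeq sequence, which held 95.1% of the reads in Th17 and 95.7% in Th0. The miR-26 seed, carried by both guides, took 4.88% of the listed reads in Th17 and 3.79% in Th0, 1.29-fold more in Th17 (1.282 to 1.293). It stood at rank 8 of 810 seeds in Th17 and at rank 9 in Th0. It stood above the seed of miR-16-5p in Th17 and below it in Th0, as that seed took 4.25% in Th17 and 6.02% in Th0. The 9 let-7 guides, miR-98-5p among them, summed to 90763 CPM in Th17 and 79839 CPM in Th0, 1.14-fold higher (1.133 to 1.140). The 5 miR-30 guides summed to 29181 CPM in Th17 and 26987 CPM in Th0, 1.08-fold higher (1.076 to 1.087). The sum of the 3 miR-26 members was 48866 CPM in Th17 and 37986 CPM in Th0, 1.29-fold higher (1.281 to 1.292), and its interval did not overlap those of the let-7 and miR-30 sums, a statement about counting error in these libraries alone. The let-7 guides themselves ranged from 1.02-fold higher for let-7d-5p to 1.76-fold for let-7e-5p (1.617 to 1.914). Of these guides, let-7e-5p alone had a higher ratio than the miR-26 sum. The miR-30 sum joined guides that went both ways: miR-30d-5p was 1.28-fold higher (1.273 to 1.293), with an interval that overlaps that of the miR-26 sum, and miR-30c-5p 1.21-fold higher, while miR-30b-5p, miR-30e-5p and miR-30a-5p stood at 0.918, 0.783 and 0.609 times their Th0 levels.

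The arms of mir-26b differed in direction. Scaling between libraries cannot affect the ratio of the arms to each other, but the Th17 over Th0 ratio of each arm moves with it. The 5p arm took 98.96% of the hairpin's reads in Th17 (98.89 to 99.02%) and 98.34% in Th0 (98.22 to 98.45%). There were 94.7 guide reads for each passenger read in Th17 and 59.3 in Th0, 1.60 times as many in Th17 (1.45 to 1.76). For the miR-26a hairpins joined, the 5p share was 99.95% in both libraries, with 1973 guide reads for each passenger read in Th17 and 2138 in Th0, and the interval of that factor, 0.739 to 1.15, spans 1. The Ctdsp2 locus gave 95.6% of the miR-26a passenger reads in Th17 (92.3 to 97.8%) and 99.2% in Th0 (95.6 to 99.98%), and these intervals overlap.

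Among 88 hairpins whose arms both average 10 CPM or more, 13 (14.8%) had arms whose intervals lay on opposite sides of 1, and mir-26b was among them. That count was made with column sums and was not repeated under another scaling. In 8 of the 13, mir-26b included, the more abundant arm was the one higher in Th17. The log2 ratios of the mir-26b arms were 0.68 apart, and 19 of the 88 hairpins had arms further apart. The median distance was 0.30, and the arms of miR-26a were 0.12 apart.

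**Figure D3:**
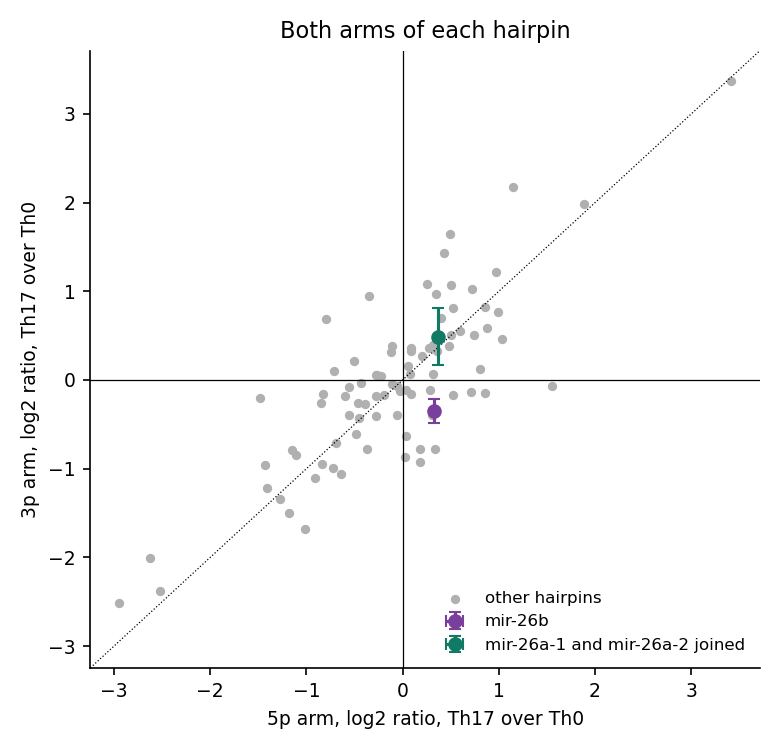
Log2 ratio of Th17 over Th0 of the 3p arm against that of the 5p arm for the 88 hairpins whose arms both average 10 CPM or more; bars are 95% intervals of counting error and the dotted diagonal marks equal ratios. mir-26b lies at 0.33 for its 5p arm and -0.35 for its 3p arm, to the lower right of the diagonal, while the joined miR-26a hairpins lie close to it.

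Sites for the miR-26 seed were looked up in messenger RNAs of background interest, to show what the guides could pair with. The 3′ UTR of the principal GENCODE M21 transcript of each gene was searched on the sense strand for TACTTGA, the complement of bases 2 to 8, and for ACTTGAA, the complement of bases 2 to 7 followed by A, and both overlap in TACTTGAA. The match is in capitals.
Ezh2 site: gaataaagaaTACTTGAActtgtt
Il6 site: atgaagtgtcACTTGAAatgtta
Ctdsp2 site 1: gtgttgctctTACTTGAtttgcc
Ctdsp2 site 2: gtattcaaaaACTTGAActgtag
The Ezh2 3′ UTR of 402 bases held 1 match of the full 8 bases, at bases 248 to 255, and the Il6 3′ UTR of 427 bases held 1 match of ACTTGAA, at bases 215 to 221. Of 1911 genes with a 3′ UTR within 20% of the length of that of Il6, 6.44% held either 7-base match, and 1.46% of the 1849 genes like Ezh2 in this respect held the 8-base match. The 3′ UTR of Ctdsp2, the host of Mir26a-2, held 1 match of each 7-base kind in 3483 bases. Of genes of like length, 40.5% held at least 1 match of either kind, and the share that held both kinds was not computed. No match was found in those of Ctdsp1 and Ctdspl. Over 20740 genes, 17.2% held either match. These are matches of letters only, and messenger RNA was not analysed here.

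Other miRNAs reported to target the same messages were set beside the guides, on lists chosen with earlier results of these data known. Of 11 miRNAs reported to target interleukin-6, 9 had an interval that lay above 1 and 2 had one below it, against 40.6% above and 47.7% below over all 298 miRNAs, and the median log2 ratio was 0.23 against -0.08. The 9 were the let-7 guides and miR-98-5p, which share 1 seed, among them let-7a-5p at 12612 CPM in Th17 and 10084 CPM in Th0 and let-7i-5p at 23897 CPM in Th17 and 19579 CPM in Th0. The other two were miR-142a-3p, a blood cell miRNA, with 1153 CPM in Th17 and 2194 CPM in Th0, and miR-365-3p, with 12.4 CPM in Th17 and 19.1 CPM in Th0. miR-26a-5p was more abundant than each of these in Th17, and in Th0 more abundant than each except let-7f-5p. The counts of 9 and 2 were made with column sums and were not repeated under another scaling. Leaving the 10 most abundant miRNAs of either library out of the totals shifts every log2 ratio by -0.057. The log2 ratios of let-7d-5p (0.034), miR-98-5p (0.038) and let-7f-5p (0.057) were no larger in size than that shift.

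Of 4 other miRNAs reported to target Ezh2, 3 reached a mean of 10 CPM, with 1 interval above 1 (40.6% of all 298), 1 below (47.7%) and 1 spanning it, and a median log2 ratio of 0.08. miR-101a-3p had 759 CPM in Th17 and 716 CPM in Th0, and miR-101b-3p had 813 CPM in Th17 and 900 CPM in Th0. miR-138-5p stood at 42.4 CPM in Th17 and 37.8 CPM in Th0, and miR-214-3p at 1.59 CPM in Th17 and 0.120 CPM in Th0, on 1 read in Th0. miR-26b-5p alone exceeded their sum of 1616 CPM in Th17 and 1654 CPM in Th0. The 3 intervals were likewise taken with column sums alone.

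The other intronic miRNAs with hosts known in T cells went both ways. Of 18 on the list, 8 lay above 1 and 10 below by their intervals, 3 were higher by 2-fold or more, 2 were lower by 2-fold or more, and the median log2 ratio was -0.26. Over all 298 the shares were 40.6% above, 47.7% below, 6.71% at least 2-fold higher and 13.1% 2-fold lower or more. The 18 entries are not separate loci, as the list holds both arms of mir-151, of mir-28a and of mir-342. The 3 higher by 2-fold or more were miR-151-3p (3.97-fold) and miR-151-5p (3.69-fold), arms of 1 hairpin, and miR-28a-3p (2.32-fold). miR-151-3p, within Ptk2, had 1755 CPM in Th17 and 442 CPM in Th0, and miR-103-3p, within Pank genes, had 5842 CPM in Th17 and 4344 CPM in Th0. On the lower side, miR-342-3p, within Evl, had 3536 CPM in Th17 and 6349 CPM in Th0, and miR-93-5p, within Mcm7, had 8618 CPM in Th17 and 15275 CPM in Th0.

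The lists of miRNAs reported to restrain or promote Th17 cells were also chosen with earlier results of these data known. Setting them against all 298 is therefore no test. Of 7 other miRNAs reported to restrain Th17 cells, the interval of 1 lay above 1 and those of 6 below, against 40.6% above and 47.7% below over all 298, and the median log2 ratio was -0.71. The exception was miR-146a-5p, a brake on NF-κB signalling, with 5161 CPM in Th17 and 2552 CPM in Th0, and the members below 1 included miR-27a-3p, with 3088 CPM in Th17 and 5635 CPM in Th0. Of 7 reported to promote Th17 cells, the intervals of 4 lay above 1 and those of 3 below, beside the same 40.6% and 47.7%, the median was 0.08, and miR-155-5p had 31749 CPM in Th17 and 14346 CPM in Th0. miR-26a-5p, which has itself been listed among Th17-restraining miRNAs, was thus higher in Th17 as miR-146a-5p was, with a smaller ratio. The counts of both lists were made with column sums and were not repeated under another scaling. DESeq2 size factors, a scaling described below, shift every log2 ratio by 0.078. That shift is larger in size than the log2 ratios of miR-21a-5p (-0.026, promoting) and miR-210-3p (-0.063, restraining), both counted below 1.

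**Figure D4:**
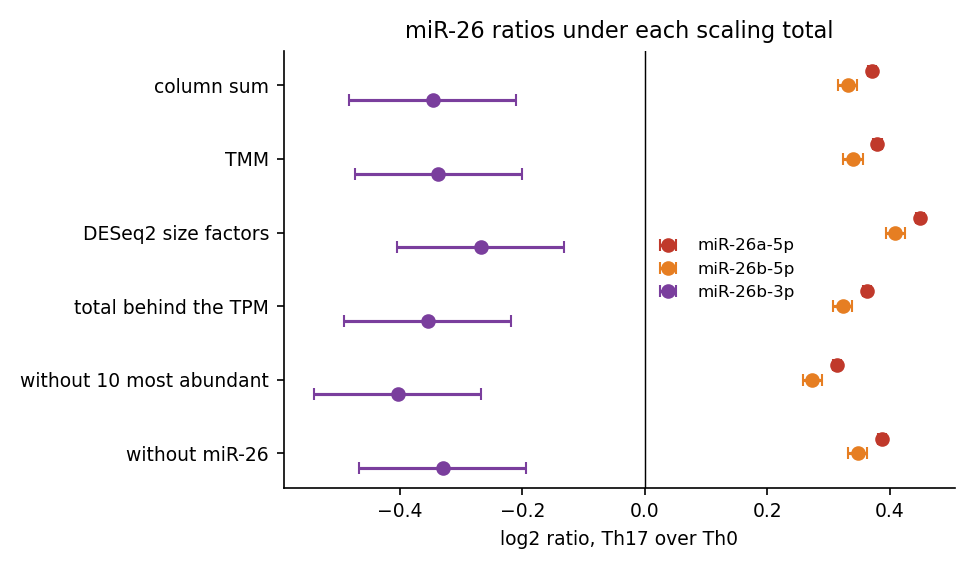
Log2 ratio of Th17 over Th0 of the 3 miR-26 members under 6 ways of scaling the libraries, with 95% intervals of counting error; the top line is the sum of listed reads used in the text. miR-26a-5p stays between 0.31 and 0.45, miR-26b-5p between 0.27 and 0.41 and miR-26b-3p between -0.40 and -0.27, each on its own side of 0.

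The directions of the 3 members were the same under each of the 6 scalings drawn, including one that leaves out the miR-26 reads and one that leaves out the 10 most abundant miRNAs of either library, miR-26a-5p among them.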

How the data were processed

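Small RNA was sequenced from Th17 and Th0 cells with a TruSeq small RNA kit, per the labels' protocols. The deposited counts are whole reads per mature miRNA, not normalized, 1 column per group. The deposited TPM values equal these counts divided by 1 total per library, checked on the files; they served only as an alternative scaling. Per the submitters' processing notes the genome was mm10. The sources used here do not give the trimming, alignment, annotation release or treatment of shared reads.

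A miRNA listed in 1 library only was taken as 0 reads in the other. Counts were divided by the column sum (CPM). Ratios are Th17 over Th0, with no count added, and 95% intervals are exact (Clopper-Pearson, scipy 1.17.1), given the total of a miRNA's reads in both libraries. Shares have exact binomial intervals, and factors between shares have exact conditional intervals of the odds ratio. Calls needed a mean of 10 CPM, a 2-fold ratio and an interval excluding 1. The procedure was tested on simulated data. Alternatives used edgeR 4.0.16 TMM factors and DESeq2 1.42.0 size factors, in R 4.3.3, with no test from either.

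Arms were compared after joining hairpins that share a mature miRNA. Named miRNAs are the members, the other arms of their hairpins, the neighbours by mean CPM, the 3 nearest by log2 ratio, and examples from the fixed lists (interleukin-6, Ezh2, intronic, Th17-restraining, Th17-promoting, cell type markers). Members and lists were chosen with earlier results of these data known. The hosts and seed sites were added after the files were seen.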

Additional observations from a re-analysis of the deposited data

How the results depend on the processing

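Each of the 3 members and their sum kept its direction under all 5 other scalings. The log2 ratio of miR-26a-5p, 0.37 with column sums, was 0.38 with TMM, 0.45 with DESeq2 size factors, 0.36 with the totals behind the authors' TPM, 0.31 without the 10 most abundant miRNAs of either library and 0.39 without the miR-26 reads. That of the summed members, 0.36 with column sums, was 0.37, 0.44, 0.36, 0.31 and 0.38 in the same order. miR-26a-5p and the summed members moved outside their counting intervals under all 5 other scalings. miR-26b-5p did so with DESeq2 size factors (0.41), without the 10 most abundant (0.27) and without the miR-26 reads (0.35), and miR-26b-3p under none. These shifts follow from the construction, since a scaling moves every miRNA by the same amount. With a minimum of 1 CPM in place of 10, 59 miRNAs were at least 2-fold higher and 75 at least 2-fold lower; with 100 CPM the counts were 13 and 15, and with no minimum 69 and 100, against 20 and 39 at 10 CPM. Over the 298 miRNAs at 10 CPM, 121 intervals lay above 1 and 142 below with column sums. These counts were 130 and 130 with DESeq2 size factors, and 108 and 149 without the 10 most abundant miRNAs of either library. No paired analysis was possible because each group has 1 library, and for the same reason no replicate could be left out. Depth limits miR-26a-1-3p, with 11 reads in Th17 and 1 in Th0, most.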

Other observations

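The seed CUGUUCU of the passengers miR-26b-3p and miR-26a-2-3p was also carried by miR-6932-3p, which had 13 reads in Th17 and 6 in Th0. The 13 hairpins with arms on opposite sides included 2 more with a blood cell guide, which were chosen after their values were seen. For these, the 5p arm of mir-142a had a log2 ratio of 0.18 and its 3p arm of -0.93, and the 5p arm of mir-150, a miRNA of mature lymphocytes, had 0.31 and its 3p arm -0.39. As for mir-26b, the 5p arm was the abundant one in both. The arms of mir-30e were reversed, with -0.35 for the abundant 5p arm and 0.95 for the 3p arm.

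The totals behind the authors' TPM exceeded the listed reads by 8.38% of the total in Th17 and 7.88% in Th0. On that scale miR-26a-5p stood at 37893 TPM in Th17 and 29460 TPM in Th0.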
